A study of Homo sapiens with 6 samples.

Results

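The cytosolic ribosomal protein genes code for the protein components of the small and large subunits of the cytosolic ribosome. They were taken as every protein-coding gene of the table with the symbol RPSA, RPLP0, RPLP1 or RPLP2, or with RPS or RPL, a number and at most the letters A, X, L or AL. Read-through genes with a hyphen, pseudogenes, the RPS6K kinases and the Y-linked copies of RPS4X were left out. The rule found 82 genes of the 57445 in the table, namely 32 of the small subunit, 47 of the large subunit and the 3 stalk proteins RPLP0, RPLP1 and RPLP2. Of these 82, 77 were the commonly used genes and 5 were the paralogues RPL3L, RPL10L, RPL36AL, RPL39L and RPS27L.

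MDA-MB-231 is a mesenchymal, triple-negative human breast cancer cell line that expresses the Wnt receptor ROR1. It was profiled by RNA-Seq as 3 libraries with the control vector (shCTL) and 3 with a shRNA against ROR1 (shRor1), to find the expression changes downstream of the receptor. Both groups carried a lentiviral pGIPZ vector and were kept under puromycin at 2 µg/ml, so they were selected populations, and no second ROR1 shRNA or parental cells were used here. The sources differ on the control, which is called an empty vector in one label and a non-silencing shRNA in the methods, and its table headers hold the word DMSO. Nothing states that the 3 libraries of a group came from separate cultures, so the p-values measure the spread between these libraries, which may be technical. The headers carry no replicate number, and the libraries are numbered here by their order in the table.

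Values are TPM, estimates of transcript abundance that are corrected for gene length and add up to the same total in each library. The table holds no read counts, so no counting interval is given beside a value. ROR1 itself, a gene outside the family, measured 15.4, 13.5 and 20.6 TPM in shCTL and 9.34, 11.9 and 14.9 TPM in shRor1, so the groups overlapped. Its log2 fold change was -0.43 (SE 0.20, adjusted p = 0.984 by limma with Benjamini-Hochberg adjustment). The paper reports a stable knockdown with a Western blot of the Ror1 protein, while only RNA was measured here. Of 8 markers fixed for MDA-MB-231, all passed the expression filter, from VIM at 2629 TPM to EGFR at 84.6 TPM on average, and their sum ran from 4440 to 4623 TPM in shCTL and from 4497 to 4870 TPM in shRor1. Of 10 markers of luminal breast cells, 8 passed the filter. The defining hormone receptor genes ESR1 and PGR stayed below it, PGR with a mean of 0.0033 TPM, while KRT19 was highest at 106 TPM. The luminal sum ran from 183 to 216 TPM in shCTL and from 190 to 241 TPM in shRor1.

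A ribosome holds each of its proteins in a single copy, apart from the stalk, where the P proteins form a multimer that recruits translation factors. Cells keep the messages of these proteins in a narrow range of levels, and surplus protein that is not built into ribosomes is degraded. Most of these messages begin with a C followed by an unbroken run of pyrimidines, the terminal oligopyrimidine (TOP) motif, through which the mTOR pathway and LARP1 control their translation and stability. The human genome also holds a very large number of processed pseudogenes of this family, made by reverse transcription of the messages.

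The start windows below are shown because most of the family has the TOP motif at its listed start, while RPS27L and RPL36AL, unlike their parents, do not. Each window holds 15 bases before and 15 bases from the RefSeq transcription start, read in the direction of transcription, with the pyrimidine run from the start in capitals. The letters are from the RefSeq promoter table (GRCh38.p14), and the positions were found by exact match on GRCh37, the build of the table.
RPLP0, chr12:120638900-120638929, minus strand: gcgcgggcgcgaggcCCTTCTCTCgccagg
RPS24, chr10:79793606-79793635, plus strand: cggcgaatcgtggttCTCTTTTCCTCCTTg
RPS6, chr9:19380220-19380249, minus strand: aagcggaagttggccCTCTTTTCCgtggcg
RPL18, chr19:49122421-49122450, minus strand: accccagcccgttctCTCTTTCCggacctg
RPS21, chr20:60962144-60962173, plus strand: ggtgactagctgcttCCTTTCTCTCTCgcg
RPS27, chr1:153963223-153963252, plus strand: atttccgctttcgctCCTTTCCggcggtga
RPS27L, chr15:63449662-63449691, minus strand: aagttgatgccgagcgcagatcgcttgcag
RPL36A, chrX:100645984-100646013, plus strand: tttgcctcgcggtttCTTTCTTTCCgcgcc
RPL36AL, chr14:50087330-50087359, minus strand: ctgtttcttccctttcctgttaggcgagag

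Of the 82 genes, 65 were in the promoter table, and 46 of them (70.8%) had a C at a listed start followed by at least 4 further bases that were C or T. The same was true of 1404 of all 27305 genes in the table (5.14%). The search was made only on the sequence read in the direction of transcription. With the C and its 4 pyrimidines allowed to begin within 10 bases of the start, the shares were 57 of 65 (87.7%) and 37.4% of all genes. RPS24 had a run of 14 bases and RPS27 one of 7, while RPS27L, RPL36AL and RPL10L had none at their listed start. RPL3 had none either, and RPL3L and RPL39L were not in the promoter table. In RPL36AL the printed window holds a pyrimidine run ahead of the listed start.

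The members together took 15.7%, 15.1% and 14.4% of all TPM in shCTL and 15.4%, 14.4% and 13.6% in shRor1. Of the 77 commonly used genes, 68 had a mean level over the 6 libraries within 2-fold of their median of 2018 TPM, and the quartiles were 1320 and 2397 TPM. The median was 2110 TPM over the 31 commonly used genes of the small subunit and 1982 TPM over the 46 of the large subunit with the stalk. RPLP0, the stalk protein that anchors the others, was highest with a mean of 4655 TPM. RPS18, RPS24, RPS3 and RPL8 followed with 4038, 3876, 3317 and 3188 TPM.

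RPLP0 measured 5152, 4549 and 4608 TPM in shCTL and 5112, 4247 and 4264 TPM in shRor1. RPLP1 and RPLP2, which form the stalk dimers on RPLP0, had means of 2207 and 894 TPM. RPLP2 ran from 801 to 949 TPM over the 6 libraries, so the ranges of the 3 stalk genes did not overlap. RPS18, a protein of the small subunit head, ran from 3942 to 4273 TPM in shCTL and from 3805 to 4249 TPM in shRor1.

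Of the 77 commonly used genes, 7 had a mean below 1000 TPM. For 6 of these, TPM was also assigned to a pseudogene that held at least 75.2% of the 50-base stretches of their coding sequence. Here 50 bases was the read length, and whether these pseudogenes are expressed was not tested. For RPS26, a small subunit protein often mutated in Diamond-Blackfan anaemia, all 50-base stretches of the coding sequence were also present in ENSG00000196656, a processed pseudogene on chromosome 4 (114135202 to 114138326, minus strand). The control libraries gave RPS26 values of 43.5, 44.9 and 34.2 TPM, and the shRor1 libraries 45.02, 40.5 and 31.7 TPM. For the pseudogene the control values were 1154, 1051 and 1021 TPM and the shRor1 values 1175, 1069 and 948 TPM, on average 26.8 times the level of RPS26. RPS28 was likewise identical over its coding sequence to RPS28P7 on chromosome 11, with means of 133 TPM for the gene and 985 TPM for the pseudogene. RPL21 had a mean of 115 TPM, against 984 TPM for RPL21P75 and 430 TPM for RPL21P16, the second of which was identical to the gene over all 480 coding bases.

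The coding stretches below are shown because only 1 or 2 coding bases separate the gene from the pseudogene in each pair. Capitals mark a base that differs. Positions are on GRCh37, and the RPL21 stretch had no unbroken match in the gene at chr13:27825499-27830828.
RPL21, coding bases from 371: cctgggttcaactaaagcgccagcctGctc
RPL21P75, chr7:20042758-20042787, plus strand: cctgggttcaactaaagcgccagcctActc
RPL9, chr4:39458047-39458076, minus strand: tccgaaatttcttgggtgaaaaataTatcc
RPL9P9, chr15:82664723-82664752, minus strand: tccgaaatttcttgggtgaaaaataCatcc
RPL23A, chr17:27049852-27049881, plus strand: ccagattaaacaggctgtgaagaagctGta
RPL23AP42, chr3:161147036-161147065, minus strand: ccagattaaacaggctgtgaagaagctCta

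RPL21 and RPL21P75 differed at 1 of 480 coding bases, RPL9 and RPL9P9 at 1 of 576, and RPL23A and RPL23AP42 at 2 of 468. In the same pairs, 88.4%, 90.5% and 81.1% of the 50-base coding stretches of the gene were shared with the pseudogene. RPL9 had a mean of 356 TPM, while its pseudogenes RPL9P8 and RPL9P9 were listed with the same value in every library, 904 TPM each on average. RPL23A had a mean of 784 TPM and RPL23AP42 one of 1219 TPM. RPL22 had a mean of 660 TPM and RPL22P1, which had 23 differences from its 384 coding bases, gaps included, one of 402 TPM. The small basic protein gene RPL41 had a mean of 1947 TPM, below the 3499 TPM of RPL41P1, which held the same 75 coding bases. RPL36A had a mean of 1214 TPM and RPL36AP37, identical over 318 coding bases, one of 559 TPM.

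How the reads of such pairs were divided is part of the estimate, so the separate levels of these genes are uncertain. With each gene summed with its pseudogenes, 74 of the 77 genes were within 2-fold of their median of 2081 TPM, against 68 for the genes alone. Only RPLP2, with 894 TPM, then remained below 1000 TPM, and RPL41 was highest with 5455 TPM. RPL41P1 is annotated over bases 21735908 to 21735988 of chromosome 20, little longer than a read. Its length-corrected level, and with it the sum and rank of RPL41, are therefore uncertain. RPS26 then had 1121 TPM, RPS28 1119 TPM, RPL21 1560 TPM, RPL9 2180 TPM, RPL23A 2072 TPM and RPL22 1070 TPM. Over all 82 members, a median of 48.5% of the coding stretches was shared with another annotated gene, and 39 members shared more than 50% of them.

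**Figure D1:**
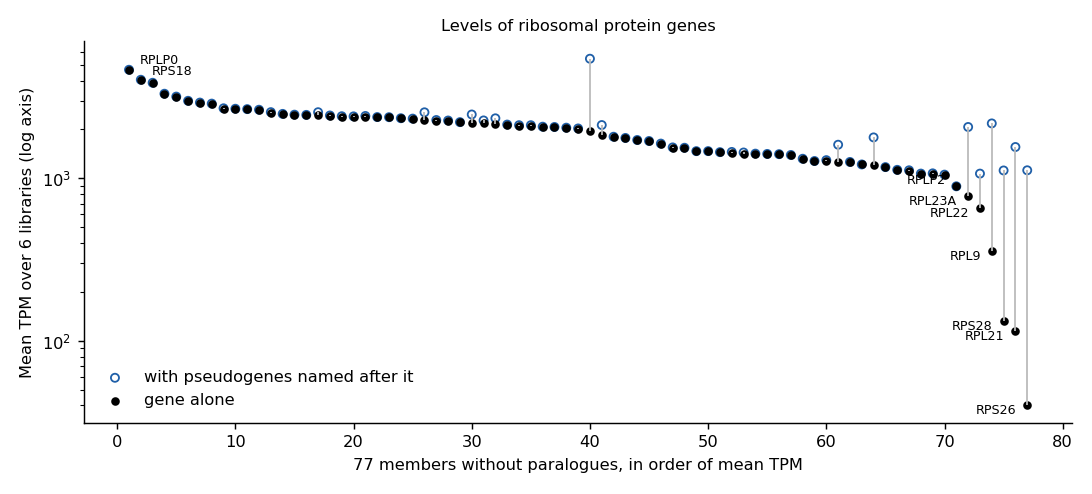
Mean TPM over the 6 libraries (log axis) of the 77 commonly used ribosomal protein genes, in order of level. Black points are the gene alone and open circles are the gene summed with its pseudogenes. The 6 lowest genes, from RPL23A at 784 TPM to RPS26 at 40.0 TPM, move to 1070 TPM or more with their pseudogenes. RPL41 moves to 5455 TPM, an uncertain sum that rests on a very short pseudogene.

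The paralogues were all below their parents. RPL36AL, which differs little in protein from RPL36A, measured 580, 525 and 619 TPM in shCTL and 570, 569 and 616 TPM in shRor1. This was 46.4% ± 5.99 of RPL36A in shCTL and 49.6% ± 4.58 in shRor1 (SD, n = 3 each, exact permutation test, two-sided p = 0.4). The ratio takes RPL36A alone, which had a mean of 1214 TPM, or 1787 TPM with its pseudogenes. All 50-base coding stretches of RPL36A, and 36.1% of those of RPL36AL, occurred in another annotated gene, so the ratio is uncertain. RPS27L, a p53-inducible paralogue, ran from 93.5 to 98.5 TPM in shCTL and from 84.2 to 113 TPM in shRor1, which was 3.81% ± 0.265 and 4.25% ± 0.770 of RPS27 (SD, n = 3 each, exact two-sided p = 0.4). RPL39L, known from testis and from some cancer cell lines, had a mean of 56.1 TPM, which was 2.81% ± 0.219 of RPL39 in shCTL and 2.58% ± 0.345 in shRor1 (SD, n = 3 each, exact two-sided p = 0.4). None of the 50-base coding stretches of RPS27L and RPL39L occurred in another annotated gene.

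RPL3L, which replaces RPL3 in skeletal muscle and heart, and the testis paralogue RPL10L stayed below the filter of 1 TPM in at least 3 libraries. RPL3L measured 0.43, 0.56 and 0.42 TPM in shCTL and 0.44, 0.73 and 0.85 TPM in shRor1. RPL10L measured 0.07, 0.09 and 0.13 TPM in shCTL, was listed at 0 in shRor1 1 and shRor1 2, and measured 0.04 TPM in shRor1 3. The values of RPL10L are close to the 0.01 TPM in which the table is rounded. The counts behind the values of both genes are unknown.

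The sum of the 82 members was 156629, 151105 and 144082 TPM in shCTL and 153996, 143907 and 135813 TPM in shRor1. The mean was 144572 ± 9110 TPM in shRor1 and 150605 ± 6288 TPM in shCTL (SD, n = 3 each), a difference of -4.01%. The groups overlapped, and the two-sided exact permutation p was 0.4, where 3 against 3 libraries cannot go below 0.1. The difference was -4.08% for the small subunit and -3.49% for the stalk, and the large subunit without the stalk had means of 81435 TPM in shCTL and 78179 TPM in shRor1, with exact two-sided p values of 0.5, 0.6 and 0.5. The small subunit sum was 68.6% ± 0.107 of the large subunit sum with the stalk in shCTL and 68.5% ± 0.525 in shRor1 (SD, n = 3 each).

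This difference depended on single libraries. It was -7.13% without shRor1 1, -6.04% without shCTL 3, -2.05% without shCTL 1 and -1.10% without shRor1 3, and -7.91% after median ratio scaling. Mitochondrially encoded transcripts took 7.80%, 8.82% and 9.61% of TPM in shCTL and 7.57%, 9.35% and 9.90% in shRor1. Within each group, the library with more mitochondrial TPM had less ribosomal protein TPM, and their part in the difference was not tested. Over nuclear protein-coding genes alone, the difference in the ribosomal protein sum was -4.52%.

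**Figure D2:**
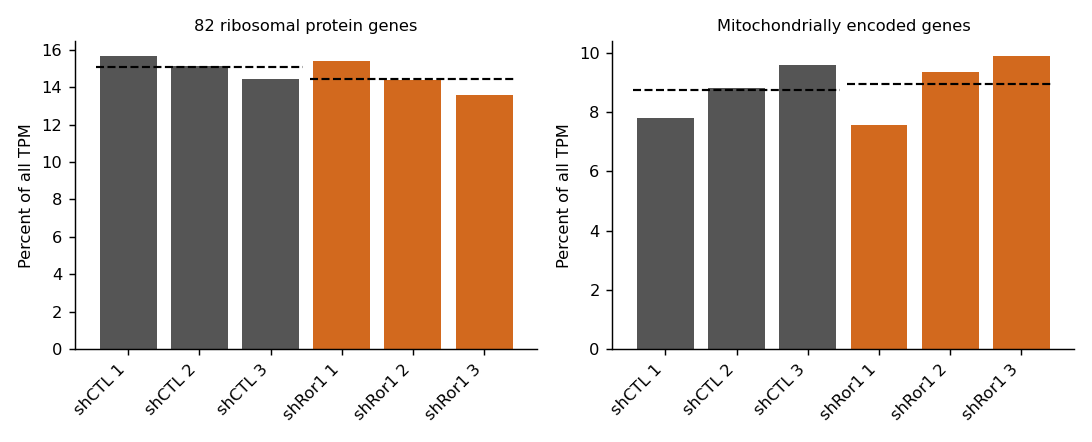
Share of all TPM in each library taken by the 82 ribosomal protein genes (left) and by the mitochondrially encoded genes (right), in percent. Bars are libraries and dashed lines are the means of the 3 libraries of a group. The ribosomal protein share runs from 14.4% to 15.7% in shCTL and from 13.6% to 15.4% in shRor1, and its order within each group is the reverse of the mitochondrial order.

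Of the 82 members, 80 passed the filter and were tested with limma together with the other genes, 16554 in all. No member passed an adjusted p of 0.05 (limma, Benjamini-Hochberg), as for the background of 0.0% of all tested genes, and the smallest adjusted p of a member was 0.984. No member had an unadjusted limma p below 0.05 either, against 2.85% of all tested genes. The fold changes were small but mostly of the same sign, as 70 of 80 members had a log2 fold change below 0, against 33.0% of all tested genes. This count was 51 after quantile normalization and 77 after median ratio scaling. The 33.0% belongs to the main fit, and the share of all tested genes under these scalings is not given here. The median was -0.07 over the members and 0.05 over all tested genes. Among the 1605 other genes at 100 TPM or more, 50.9% were lower in shRor1 and the median was -0.00. These genes are known to be co-regulated and share each library, so their signs are not independent of each other.

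The median standard deviation of log2(TPM + 1) over the 6 libraries was 0.09 for the members and 0.11 for the other genes at 100 TPM or more. RPL23A had the lowest value of the members, 0.05, and RPS26 the highest, 0.21. shRor1 3 held the lowest value for 59 of the 80 members and shCTL 1 the highest value for 41. The median member lay 0.12 below its own mean in shRor1 3 and 0.09 above it in shCTL 1 on the log2 scale, while shRor1 1 lay 0.06 above it, beside the controls.

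**Figure D3:**
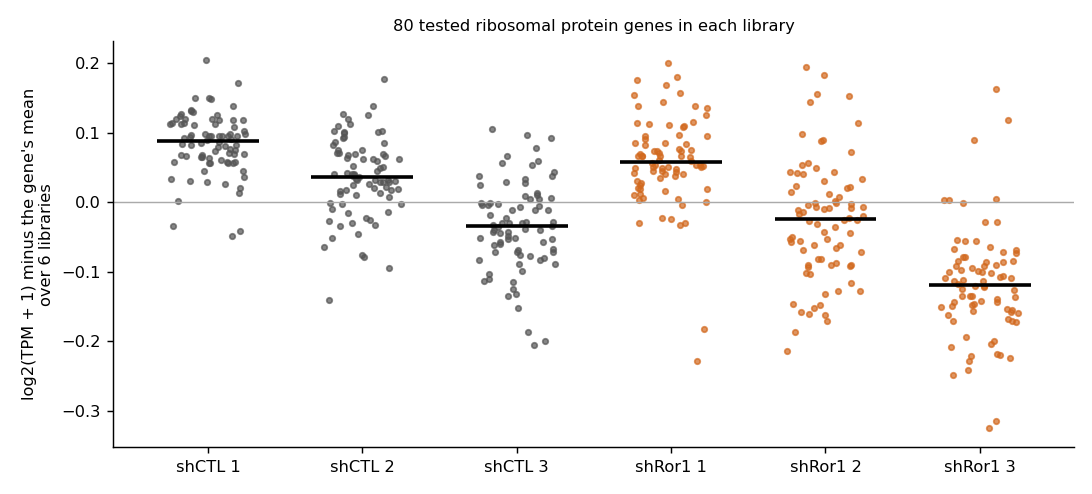
Each of the 80 tested members in each library, as log2(TPM + 1) minus the mean of that gene over the 6 libraries. Points are genes and black lines are medians, which are 0.09, 0.04 and -0.03 in shCTL 1 to 3 and 0.06, -0.02 and -0.12 in shRor1 1 to 3, so the libraries of both groups cover much of the same range.

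RPS21, a protein of the small subunit, had the smallest limma p of the members. It measured 2653, 2585 and 2520 TPM in shCTL and 2519, 2247 and 2234 TPM in shRor1. All 3 shRor1 values were below all 3 shCTL values, but the highest of them was within 2 TPM of the lowest control. RPS21 was the only member of 80 whose groups did not overlap with shRor1 lower, against 1.3% of all tested genes. Its log2 fold change was -0.15 (SE 0.08, adjusted p = 0.984 by limma), and the exact two-sided permutation p was 0.1, the smallest that 3 against 3 libraries can give.

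RPL18, a protein of the large subunit, measured 1518, 1525 and 1446 TPM in shCTL and 1513, 1268 and 1186 TPM in shRor1. It had the most negative log2 fold change of the members, -0.19 (SE 0.10, adjusted p = 0.984 by limma). RPS9, which sits near the messenger RNA entry site, measured 1509, 1388 and 1482 TPM in shCTL and 1411, 1303 and 1267 TPM in shRor1 (log2 fold change -0.14, SE 0.08, adjusted p = 0.984 by limma). In both genes shRor1 1 lay within the range of the controls and the other shRor1 libraries lay below it.

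RPL37, a zinc-binding protein of the large subunit, measured 1546, 1568 and 1493 TPM in shCTL and 1527, 1300 and 1366 TPM in shRor1, with a log2 fold change of -0.14 (SE 0.08). RPS16, which reaches the decoding site with its tail, measured 1918, 1896 and 1800 TPM in shCTL and 1927, 1595 and 1507 TPM in shRor1, with a log2 fold change of -0.17 (SE 0.10). In RPS16 the highest value of all 6 libraries was that of shRor1 1.

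**Figure D4:**
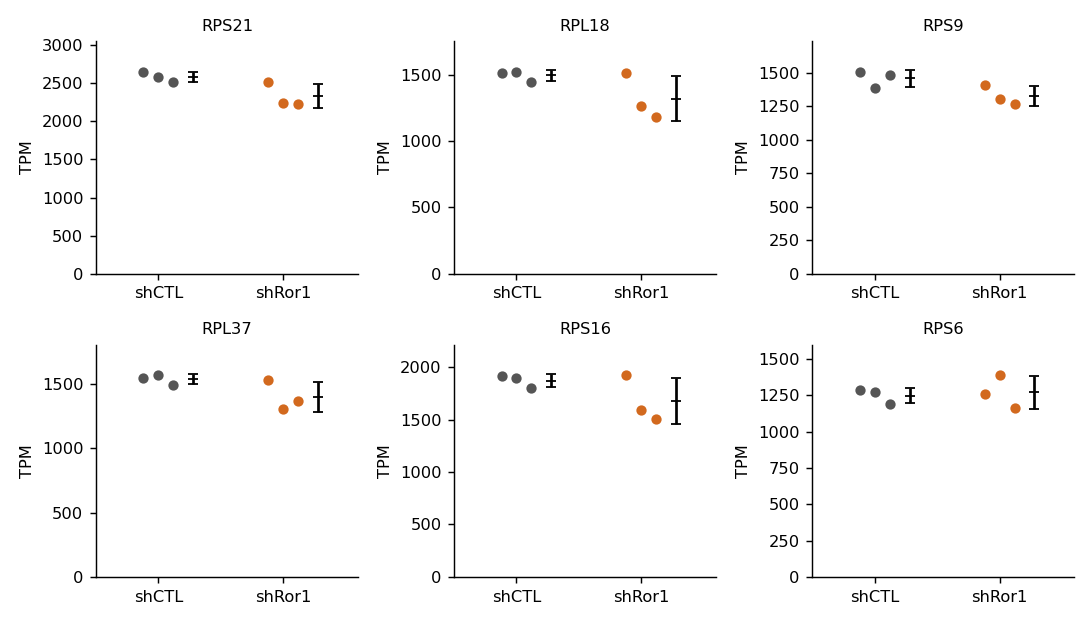
TPM of the 5 members with the smallest limma p, and of RPS6, in each library. Points are libraries and the bars beside them are mean ± SD of 3 libraries. In RPS21 all 3 shRor1 libraries lie below the controls, while in RPL18, RPL37 and RPS16 shRor1 1 lies among or above the controls, and in RPS6 the control range lies inside that of shRor1.

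How many members came near the threshold depended on shRor1 1. Without shRor1 1, 12 of the 80 members had an unadjusted limma p below 0.05, against 10.4% of all tested genes in the same fit. Those lower in shRor1 included RPL8, RPL18, RPL28, RPL37, RPS9, RPS15, RPS16, RPS21 and RPS28, and RPS27L was higher. RPS15 had a log2 fold change of -0.26 and RPS28 one of -0.28 in that fit, and the smallest adjusted p of a member was 0.44 (limma). RPL28 and RPS15 are named here because of these values. Without shRor1 3, the median over the members was -0.02 and 49 of 80 were lower, and without shCTL 1 the median was -0.03 and 54 were lower. The share of all tested genes that was lower in these fits is not given here, so these counts have no background beside them.

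None of the members named for a role in signalling or at a functional site of the ribosome passed the test. RPS6, the substrate of the S6 kinases, measured 1288, 1270 and 1187 TPM in shCTL and 1259, 1390 and 1166 TPM in shRor1 (log2 fold change 0.02, SE 0.09, adjusted p = 0.987 by limma). RPL5 and RPL11, which bind MDM2 when ribosome assembly fails, had log2 fold changes of -0.01 and -0.07. RPL5 ran from 2722 to 2978 TPM in shCTL and from 2680 to 2950 TPM in shRor1. RPL11 ran from 1441 to 1541 TPM in shCTL and from 1369 to 1481 TPM in shRor1. Both ranges overlapped between the groups.

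The tunnel proteins RPL4, RPL17 and RPL39 had log2 fold changes of -0.01, -0.09 and 0.08. RPL39 measured 2029, 2147 and 1915 TPM in shCTL and 2044, 2370 and 2047 TPM in shRor1, so that only shRor1 2 lay above all controls. RPL3, RPL8 and RPL10, which lie at or near the peptidyl transferase centre, had log2 fold changes of 0.01, -0.10 and -0.05. RPL8 measured 3390, 3267 and 3197 TPM in shCTL and 3541, 2982 and 2749 TPM in shRor1, with the highest and the lowest value both in shRor1. RPS3, at the messenger RNA entry site, had a log2 fold change of -0.10, and RPS19, a protein often mutated in Diamond-Blackfan anaemia, one of -0.10.

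The 10 members with a log2 fold change above 0 were RPL9 (0.09), RPS27L (0.09), RPL39 (0.08), RPS3A (0.04), RPL13 (0.04), RPL36AL (0.03), RPS6 (0.02), RPS12 (0.02), RPL22 (0.02) and RPL3 (0.01). They include 2 of the 3 tested paralogues. RPS3A, RPL13 and RPS12 are named here only for this sign, and none of the 10 had a limma p below 0.05. The genes with uncertain division of reads had values on both sides, with -0.07 for RPS26, -0.15 for RPS28, -0.00 for RPL21, -0.01 for RPL23A and -0.04 for RPL41. Summed with the pseudogenes named after them, the 80 members had a median of -0.07, as for the genes alone, and 69 of them were lower. This fit left out unnamed pseudogenes, among them ENSG00000196656, which holds the coding sequence of RPS26.

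Members with and without the pyrimidine run at a listed start had like medians. The median log2 fold change was -0.07 over the 46 tested members with the run at their start, -0.07 over the 18 without it and -0.07 over the 16 that were not in the promoter table. The share of members that were lower was 40 of 46, 14 of 18 and 16 of 16. The split depends on the exact listed start. Within 10 bases of the start, 57 of 65 members had such a run, so the 18 may include messages with the TOP motif.

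The base composition of the coding sequence varied with the fold change among the members. Among the 27 members with the least G and C (42.1% to 47.5%) the median log2 fold change was -0.03, among the 26 in the middle (47.9% to 53.8%) it was -0.06, and among the 27 with the most (54.0% to 63.0%) it was -0.09. The correlation across members was r = -0.54 (n = 80 genes, which share the same 6 libraries and are not independent replicates). Across all 12119 tested protein-coding genes with a coding sequence it was -0.13, and across the 1512 of these at 100 TPM or more outside the family it was -0.27, so the relation was not confined to the members. RPL13, with 62.2% G and C and a log2 fold change of 0.04, went against it.

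The relation varied between libraries. The members richest in G and C lay 0.08 and 0.15 below their own mean in shRor1 2 and shRor1 3 on the log2 scale, and 0.09 above it in shRor1 1. The members poorest in G and C lay 0.02 above it in shRor1 2 and 0.09 below it in shRor1 3. In shCTL 3 the order was the opposite, with medians of -0.07 for the members poorest and -0.01 for those richest in G and C. The other genes at 100 TPM or more that were richest in G and C also lay 0.08 below their mean in shRor1 2. The poorest of these other genes lay 0.08 above it there. In shRor1 3 their medians were closer, with -0.04 for the richest and -0.02 for the poorest. The 12 tested members on chromosome 19 had a median log2 fold change of -0.11 and a median of 59.6% G and C, against -0.05 and 49.5% for the other 68. All 12 were among the 27 members richest in G and C. The 15 of these on other chromosomes had a median log2 fold change of -0.07 and a median of 55.0% G and C, and the remaining 53 members had medians of -0.05 and 47.5%. The part of base composition in the fold changes was not tested.

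**Figure D5:**
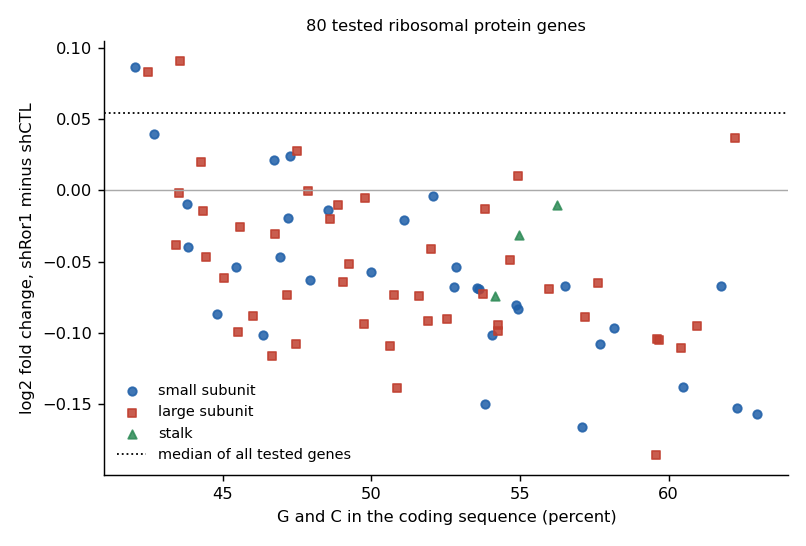
Log2 fold change (shRor1 minus shCTL) of the 80 tested members against the percent of G and C in their coding sequence. Points are genes, by subunit, and the dotted line is the median of all tested genes, 0.05. The members poorest in G and C lie around a median of -0.03 and those richest around -0.09, with RPL18 lowest at -0.19.

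Among genes related to the family but outside the rule, FAU codes for a ribosomal protein fused to a ubiquitin-like protein, and RACK1 is a scaffold on the small subunit. FAU measured 746, 753 and 686 TPM in shCTL and 765, 702 and 590 TPM in shRor1, with a log2 fold change of -0.09 (SE 0.10), and RACK1 had one of -0.04. The paralogues RPL7L1, RPL22L1 and RPL26L1 had log2 fold changes of -0.01, -0.05 and -0.11, with RPL22L1 spread from 92.2 to 192 TPM within shRor1 alone. None of these 5 genes had a limma p below 0.05.

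No gene of the pathway lists passed the adjusted threshold or an unadjusted limma p of 0.05. Of 37 ribosome biogenesis genes, 32 had a log2 fold change below 0, with a median of -0.11, and the summed level was 7524, 7296 and 6462 TPM in shCTL and 7455, 6996 and 5731 TPM in shRor1. The nucleolar protein gene NCL was the highest of them with a mean of 1728 TPM and UTP15 the lowest with 21.0 TPM. Of 76 mitochondrial ribosomal protein genes, which serve the separate ribosome of the mitochondrion, 54 were lower, with a median of -0.06, from MRPL51 with a mean of 284 TPM to MRPL57 with 12.9 TPM. Of 16 translation factor and other TOP messages, 9 were lower, with a median of -0.01, from EEF1A1 with a mean of 8762 TPM to EIF3F with 245 TPM. Of 12 regulators of ribosomal protein messages, 7 were lower, with a median of -0.01, from EIF4E with 160 TPM to MTOR with 20.9 TPM. Of the 8 MDA-MB-231 markers 4 were lower, with a median of -0.00, and of the 8 tested luminal markers 2 were lower, with a median of 0.13. The share lower was 33.0% over all tested genes and 50.9% over the 1605 non-members at 100 TPM or more, the level of all 16 TOP messages on the list.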

How the data were processed

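Reads were single and 50 bases long. The labels give polyA RNA, the methods a kit for total RNA. Per the labels and methods, the authors aligned reads with STAR to GRCh37 with Ensembl 73 genes and estimated gene levels with RSEM 1.2.5. The deposited values are TPM from RSEM, as every column adds up to the same total. Symbols came from the given name table for 55022 of the 57445 identifiers, and positions and coding sequences from GENCODE 44 on GRCh37.

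The tested genes had 1 TPM or more in 3 or more libraries and were compared on log2(TPM + 1) with limma 3.58.1 in R 4.3.3 (lmFit, eBayes with trend, condition only, all 6 libraries), with Benjamini-Hochberg adjustment over all tested genes and a threshold of 0.05. Fold changes on this scale understate those of low genes. Sums and ratios were compared by two-sided exact permutation tests (SciPy 1.17.1). The fit was also run on simulated data in which each gene varied independently. Such data lack shifts shared by a whole library, so that run is not used here as support. Shared stretches are 50-base stretches of the canonical coding sequence that occur on the same strand in a transcript of another gene. Summed levels with pseudogenes take those named after a member, and unnamed ones at 100 TPM or more that share at least 10 stretches. The limma fit on sums with pseudogenes takes only those named after a member.

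The members and lists were chosen with earlier results of these data known. Members were named as stalk genes, the 5 highest and 5 lowest, the 5 with the smallest p, those of known roles, the paralogues with their parents, and those with a pseudogene at 0.25 or more of their level. Of each other list, the highest and lowest gene were named, beside ROR1 and related genes. RPS17L, on the list of related genes, was not matched to an identifier and has no value. A few named genes are not reported here. The summed TPM of short noncoding RNA genes ran from 4156 to 9610 in shCTL and from 4003 to 4996 in shRor1, and that of histone genes from 1783 to 1840 and from 1714 to 1902.

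Alternatives were another pseudocount (0.1), no filter, a mean of at least 5 TPM, 4 other scalings, sums with pseudogenes, no trend, array weights and each library left out. Scaling over nuclear protein-coding genes was added after seeing the data. No count model was used, since TPM are not counts.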

Additional observations from a re-analysis of the deposited data

How the results depend on the processing

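No member passed the adjusted threshold under any of the 16 alternative fits, where the smallest adjusted p of a member was 0.44 (limma). All 16554 tested genes together gave 0 calls, or 0 to 1 with a library left out. Members at an unadjusted p below 0.05 numbered 1 without a filter (RPL10L, against 3.49% of all genes in that fit), 2 after rescaling over nuclear protein-coding genes (RPS9 and RPS21, against 1.54%), 1 with array weights (RPL18, against 5.19%) and 0 to 12 with a library left out. The median log2 fold change of members was -0.02 after quantile normalization and -0.13 after median ratio scaling, both of which put the median of all genes at 0.00, and -0.11 to -0.02 with a library left out. Lower members numbered 51 and 77 under these scalings and 49 to 75 with a library left out, where the summed difference was -7.13% to -1.10%. These counts are given without the share of all tested genes that was lower in the same fit. No paired analysis was possible because no replicate number stands in the headers.

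Of 40 named genes with a fold change, 20 kept its sign throughout and 20 did not, and the cause was not tested. After quantile normalization the log2 fold change was 0.097 for RPLP0, 0.052 for RPL4, 0.028 for RPL5 and for RPS24, 0.016 for RPLP2, 0.013 for RPS18 and 0.011 for RPLP1 and for RPL7L1. After median ratio scaling it was -0.051 for RPL3, -0.041 for RPL22, -0.037 for RPS6 and -0.033 for RPL36AL, and RPL3 was at -0.0014 after rescaling over protein-coding genes. With a library left out the log2 fold change ran from -0.095 to 0.0015 for RPL10, -0.084 to 0.0014 for RPS24, -0.096 to 0.16 for RPL21, -0.0069 to 0.064 for RPL22, -0.042 to 0.021 for RPL23A and -0.037 to 0.091 for RPL3. It ran from -0.036 to 0.083 for RPL36AL, -0.12 to 0.033 for RPL39L, -0.050 to 0.033 for RPL4, -0.084 to 0.015 for RPL41, -0.054 to 0.029 for RPL5 and -0.097 to 0.034 for RPLP1. It also ran from -0.057 to 0.065 for RPLP2, -0.19 to 0.071 for RPS26, -0.042 to 0.085 for RPS6, -0.18 to 0.010 for FAU, -0.072 to 0.081 for RPL7L1 and -0.30 to 0.23 for RPL22L1. No counting error is given, since the table holds no read counts.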
